A study of Mus musculus with 8 samples.

Results

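Gangliosides are the sialic acid-bearing glycolipids that carry the A2B5 epitope of oligodendrocyte precursor cells, and 10 genes that encode enzymes of their synthesis were followed between a mild cold and body temperature. They were Ugcg, B4galt5, B4galt6, St3gal5, St8sia1, St8sia3, St8sia5, B4galnt1, B3galt4 and St3gal2, taken by symbol from the 18193 genes that the array names, with every probe set annotated to them: 24 of 45037 probe sets other than controls. The cells were labelled as oligodendrocyte precursors of the ICR strain, with no genetic change named. They were derived from the forebrain hemispheres of mouse embryos of 15 days. They had spent 5 days as a mixed culture with 10% fetal serum before they were moved to medium without serum. From then on, 4 samples were held at 31.5 °C and 4 at 37 °C for 48 hr, and each was read on 1 of 8 arrays. The labels count 3 mice to a group without tying the samples to separate cultures, so p-values measure only the spread between these samples, which may be technical.

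A2B5 is an antibody that binds gangliosides with several linked sialic acids and is used to recognise glial precursors of the brain. Gangliosides are built stepwise in the Golgi: ceramide receives glucose and then galactose, and sialic acids are added to the galactose one after another. The number of sialic acids on that galactose sets the series (a, b or c), and the chain can then be lengthened by further sugars. St8sia1, St8sia3 and St8sia5 belong to the family that joins sialic acid to sialic acid, the linkage on which the b and c series rest.

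Promoter sequences of 5 of the 10 genes (Ugcg, B4galt5, St3gal5, St8sia1 and B3galt4) were held by the RefSeq table used here (GRCm38.p6). Those of Ugcg and St3gal5 are shown because these members had higher signals at 31.5 °C in each of the 4 pairs of arrays. Of all tested genes 25.3% did so. Each is the 250 bases before the annotated gene start, 5′ to 3′ on the gene's strand, with GGGCGG or CCGCCC (a GC box on either strand) in capitals. The Ugcg stretch lies at chr4:59189300-59189549 and that of St3gal5 at chr6:72097358-72097607, both on the plus strand.
Ugcg: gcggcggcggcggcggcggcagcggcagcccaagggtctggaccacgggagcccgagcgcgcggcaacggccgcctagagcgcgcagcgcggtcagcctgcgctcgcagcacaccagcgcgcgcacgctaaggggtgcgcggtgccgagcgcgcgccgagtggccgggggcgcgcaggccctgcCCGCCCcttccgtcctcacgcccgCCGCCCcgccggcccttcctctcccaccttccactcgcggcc
St3gal5: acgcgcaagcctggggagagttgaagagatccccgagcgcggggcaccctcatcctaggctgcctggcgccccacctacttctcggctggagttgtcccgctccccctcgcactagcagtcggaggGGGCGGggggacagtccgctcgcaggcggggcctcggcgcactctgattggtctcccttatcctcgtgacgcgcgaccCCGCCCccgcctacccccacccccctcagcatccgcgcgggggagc
The G and C share was 80.4% for Ugcg and 71.6% for St3gal5, against a median of 52.4% over the 32851 promoters of the table. The Ugcg stretch held 43 CG pairs and that of St3gal5 25, where the median was 6. A GC box was found in 5 of the 5 matched members and in 32.7% of all promoters. CCAAT or ATTGG was found in 2 of 5 (St3gal5 and St8sia1) and in 33.8% of all. TATAAA or TTTATA was found in 0 of 5 and in 12.4% of all, and CACGTG in 0 of 5 and in 6.02%. A match to these letters describes the sequence and not a bound factor.

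With temperature as the only term, none of the 10 genes passed the test (limma, adjusted p under 0.05 over 11525 genes). Of all genes 15.4% did, 7.64% higher and 7.77% lower in the cold. At an unadjusted p under 0.05 in the same fit, 1 was higher (St3gal5) and 1 lower (B4galt6). With the replicate number as a block, which compares the arrays of one number, Ugcg rose and B4galt6 fell. Among all genes the block called 30.8%, 15% higher and 15.8% lower. The median log2 change of the 10, 31.5 °C minus 37 °C, was -0.066 (4 above and 6 below 0), against -0.0017 over all genes. The median size of their changes, whatever the sign, was 0.23, and 0.18 over all genes. St3gal5 was the only member whose arrays at one temperature all lay above those at the other, which 22.2% of all genes showed. Ugcg and St3gal5 were higher in the cold in all 4 pairs, as were 25.3% of all genes. B4galt6 and St3gal2 were lower in all 4, as were 25.1%. Signals below are linear and scaled to a common trimmed mean, in the order of replicates 1 to 4. Changes are log2 differences, 31.5 °C minus 37 °C, ± SE, and means are ± SD (n = 4). Signals of different probe sets are not compared with each other.

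**Figure D1:**
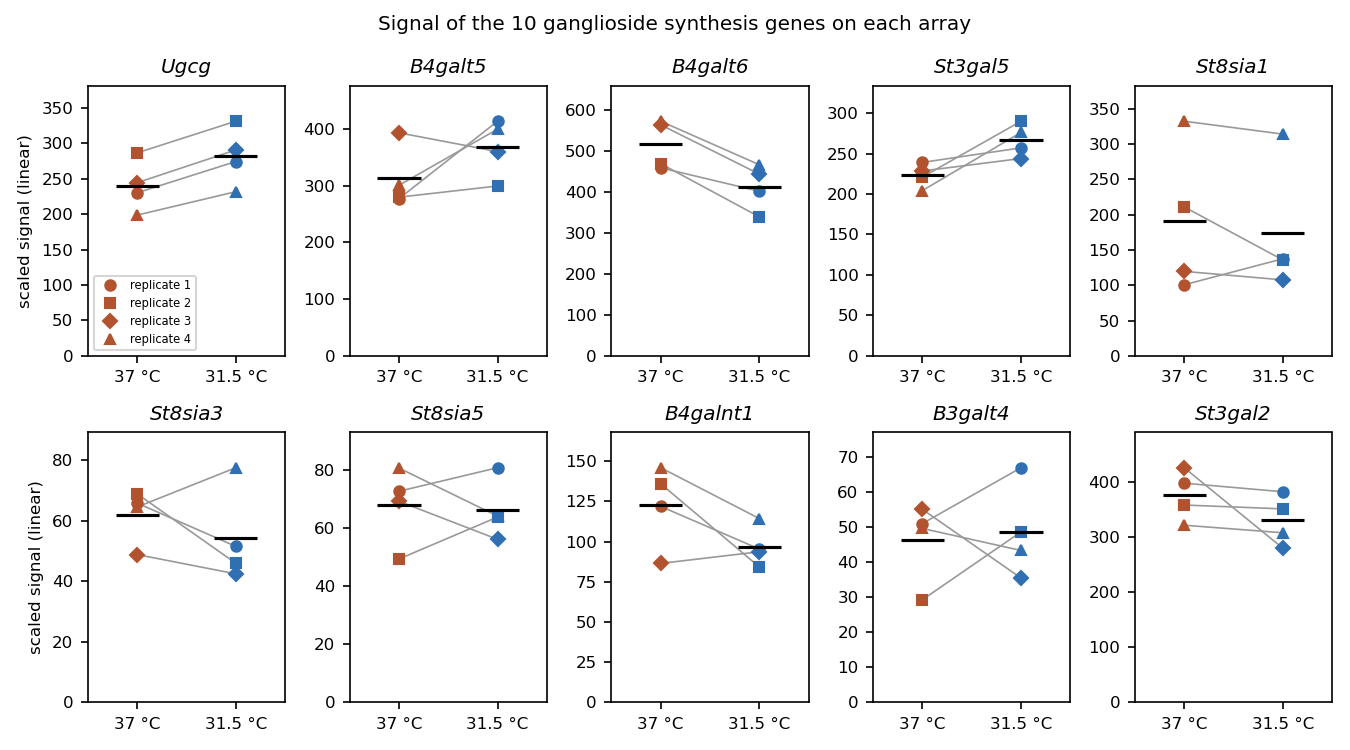
Scaled signal (linear, each axis from 0) of each member's brightest probe set at 37 °C and 31.5 °C; symbols are replicates 1 to 4, grey lines join arrays of one number and black bars are group means. The 4 lines of Ugcg and of St3gal5 run upward and those of B4galt6 and St3gal2 downward, while St8sia5 and B3galt4 have 2 lines in each direction.

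Ugcg, the glucosyltransferase that starts the pathway from ceramide, was slightly higher in the cold in every pair. Its brightest probe set (1421269_at) read 230.0, 286, 244 and 199 at 37 °C and 274, 331, 290.4 and 232 at 31.5 °C. The groups overlapped, since replicate 2 was the highest and replicate 4 the lowest at each temperature. The pairs differed by 0.25, 0.21, 0.25 and 0.22. The mean change was 0.23 ± 0.14, or 1.18-fold (95% interval 0.943 to 1.47), with an adjusted p of 0.298 without and 0.0294 with the block (SE 0.059, interval 1.06 to 1.30). Leaving out any 1 pair ended that call (adjusted p 0.0722 to 0.0957) at changes of 0.23 to 0.24.

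The other probe sets of Ugcg showed less. At 1421268_at the change was 0.089 ± 0.12 (adjusted p = 0.683), higher in 3 of 4 pairs. At 1435133_at it was 0.00030 ± 0.22 (adjusted p = 0.9996), higher in 1 pair, and array weights or the removal of single arrays turned its sign. A further one, 1439863_at, lay under the floor of 9.80 on all 8 arrays. With the mean of its probe sets, the one under the floor among them, the change of Ugcg was 0.081 (adjusted p = 0.603).

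The next step, galactose onto glucosylceramide, is shared by the related enzymes B4galt5 and B4galt6, whose values lay on opposite sides of 0. B4galt6 (1460329_at) read 458, 468, 563 and 572 at 37 °C and 401, 339, 443 and 466 at 31.5 °C. It was lower in each pair, by -0.19, -0.47, -0.35 and -0.30, though the highest array in the cold stood above the lowest at 37 °C. The change was -0.33 ± 0.13 (adjusted p = 0.116; with the block 0.0187, a call that ended without pair 2 at 0.0623; without pair 3 or 4 the gene was read by 1435758_at, described next). B4galt5 (1433617_s_at) read 277, 279.9, 393 and 301 at 37 °C and 414, 299.6, 360.3 and 399.8 at 31.5 °C. Replicate 3 ran against the other pairs, and the change of 0.24 ± 0.14 did not pass (adjusted p = 0.298). The ending _s_at marks a probe set that can read more than 1 transcript. The second B4galt5 probe set, 1421967_at, was dim, at 16.3 ± 6.31 at 37 °C and 23.6 ± 9.51 in the cold.

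The probe sets of B4galt6 differed in the size of the change. Tested singly over 22519 probe sets, 1 of the 19 member probe sets past the filter on dim signals fell and 0 rose, where 13.2% of all probe sets passed (6.46% higher, 6.76% lower). The one that fell was B4galt6 1435758_at, which read 514, 480.5, 512 and 564 at 37 °C and 388, 388, 397 and 433 at 31.5 °C. No cold array reached a warm one, and the change was -0.37 ± 0.086 (adjusted p = 0.026; 0.0129 with the block). That call ended with median scaling (adjusted p = 0.194) and without replicate 1, 3 or 4 at 37 °C or replicate 1, 2 or 3 at 31.5 °C (at most 0.0728), and the one with the block ended without pair 1 or 3 (at most 0.0513). Where replicate 4 at 31.5 °C or replicate 3 at 37 °C was left out, this probe set became the brightest of B4galt6 and the gene passed (adjusted p = 0.0224 and 0.0393). It also became the brightest without replicate 3 at 31.5 °C, and there the gene did not pass. The other probe sets were at -0.18 ± 0.11 (1450913_at, adjusted p = 0.324) and 0.037 ± 0.13 (1423228_at, adjusted p = 0.889), the last a sign that the removal of single arrays turned. With the mean of its probe sets B4galt6 was at -0.21 (adjusted p = 0.2).

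**Figure D2:**
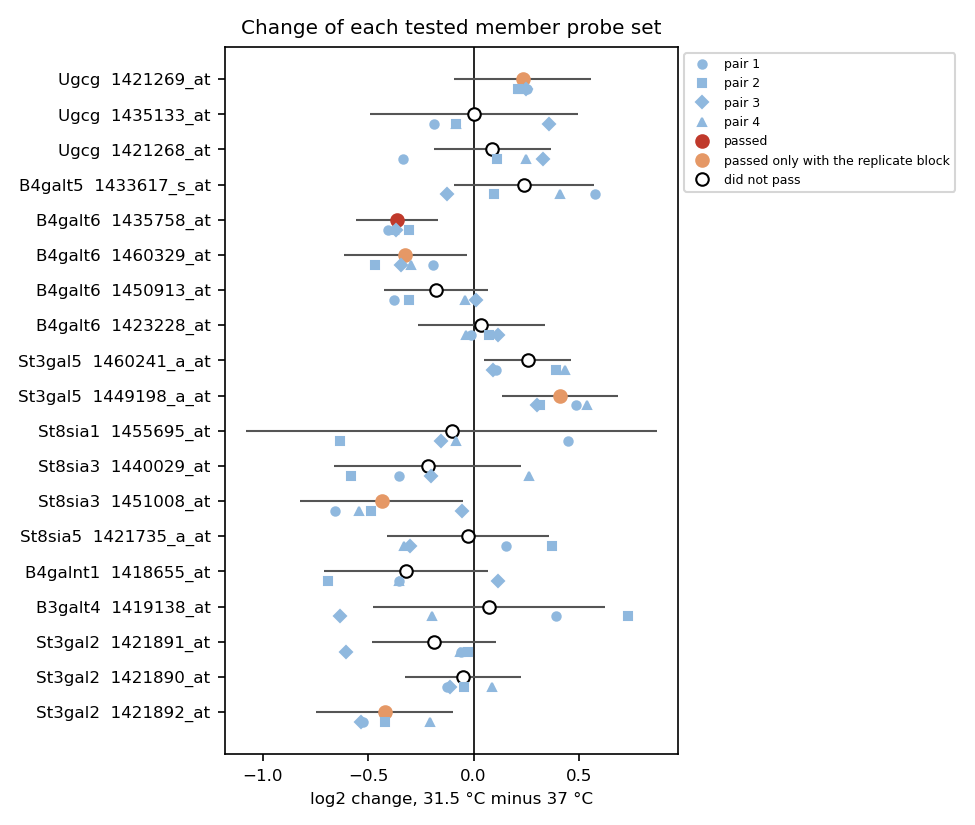
Log2 change (31.5 °C minus 37 °C) of the 19 tested member probe sets with the 95% interval of the fit without a block; small blue symbols, set just below each point, are the 4 pairs. Red passed, orange passed only with the replicate block, open did not pass; B4galt6 1435758_at, at -0.37, is the only red point.

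St3gal5, the enzyme that adds the first sialic acid and makes GM3, the parent of the sialylated series, had the smallest p of the 10 in the fit without the block. Its probe set 1460241_a_at read 239, 221, 228 and 204 at 37 °C and 257, 290.0, 244 and 276 at 31.5 °C, so each cold array was above each warm one. The change of 0.26 ± 0.088, or 1.19-fold (95% interval 1.04 to 1.37), did not pass (adjusted p = 0.0833; 0.0666 with the block, where B4galt6 and Ugcg had smaller values). The second probe set, 1449198_a_at, read 178, 209, 212 and 229 at 37 °C and 249, 260.2, 262 and 332 at 31.5 °C, also without overlap. Its change was larger, at 0.41 ± 0.12, and passed with the block (adjusted p = 0.0142) but not without it (0.0564). The blocked call ended without pair 1 (0.0563). Without a block it passed with quantile (0.0355) or median scaling (0.0316), a filter at the 70th percentile (0.0334), an intensity trend (0.046) or array weights (0.0477), but with no single array left out (at least 0.0649). With the block and without pair 1 this probe set was the brighter one, and the gene passed (0.39, adjusted p = 0.0418). With the mean of both probe sets St3gal5 rose by 0.33 (adjusted p = 0.0336).

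The 5 genes whose log2 signals followed St3gal5 (1460241_a_at) most closely over the 8 arrays were Med27 (Pearson's r = 0.985), Exoc1 (0.969), Gm17750 (0.966), Tchp (0.96) and Heca (0.957). The arrays share their temperature groups and their pairs, so this likeness is a description. They were picked from 11525 genes for likeness to a member higher on each cold array, so rises among them were favoured. Of the 5, Heca (adjusted p = 0.0211) and Gm17750 (0.0484) rose, where 7.64% of all genes did. The call of Heca ended with median scaling (0.068), its probe sets averaged (0.218) or the block and 1 pair left out (up to 0.0736) and without replicate 2 or 4 at 37 °C or replicate 2 at 31.5 °C (at most 0.0595), and that of Gm17750 with quantile normalization (0.0502), median scaling (0.108), no filter on dim signals (0.0908), its probe sets averaged (0.0539), array weights (0.0583) or the block and 1 pair left out (up to 0.0835) and without replicate 1, 2, 3 or 4 at 37 °C or replicate 1, 2 or 4 at 31.5 °C (at most 0.11).

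St8sia1, which turns GM3 into GD3 and opens the b series, varied far more between replicate numbers than between temperatures. Its brightest probe set (1455695_at) read 101, 211, 119.7 and 332 at 37 °C and 138, 136, 108 and 314 at 31.5 °C. Replicate 4 was the highest at both temperatures. The change of -0.10 ± 0.43 did not pass (adjusted p = 0.898), and its 95% interval ran from 0.474-fold to 1.82-fold. With the block, which takes out the differences between replicate numbers, it ran from 0.706-fold to 1.23-fold (adjusted p = 0.656). Changes in either direction within that range were not excluded. The sign turned without replicate 4 at 37 °C (0.22) or replicate 3 at 31.5 °C (0.082). The other St8sia1 probe sets were below the filter of 36.3: 1419694_at was at 35.8 ± 10.7 at 37 °C and 33.3 ± 2.62 in the cold, and 1419695_at at 25.7 ± 10.2 and 25.7 ± 5.96.

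A further sialic acid, as in the c series, is ascribed mainly to St8sia5, and St8sia3 is a relative that acts on glycolipids and glycoproteins. Their signals were low, close to the filter on dim probe sets. St8sia5 (1421735_a_at) read 72.6, 49.3, 69.1 and 80.5 at 37 °C and 80.7, 63.7, 56.1 and 64.03 at 31.5 °C. It was higher in 2 pairs and lower in 2 (-0.028 ± 0.17, adjusted p = 0.933), with a 95% interval of 0.755-fold to 1.27-fold. Quantile, median or no scaling and array weights turned its sign.

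St8sia3 (1440029_at) read 65.8, 68.8, 48.8 and 64.5 at 37 °C and 51.5, 45.96, 42.4 and 77.5 at 31.5 °C. Replicate 4 was higher and the other 3 were lower in the cold (-0.22 ± 0.19, adjusted p = 0.489). Its dimmer probe set 1451008_at read 68.4, 59.7, 38.3 and 59.9 at 37 °C and 43.4, 42.5, 36.9 and 41.02 at 31.5 °C and was lower in each pair. That change of -0.44 ± 0.17 passed with the block (adjusted p = 0.0367) but not without it (0.127), unless replicate 3 at 37 °C was left out (0.0125). With the block and without pair 1, 2 or 4 it did not pass (at most 0.116), and without pair 3 it did (0.0229).

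Among the enzymes that lengthen the chain, B4galnt1 adds N-acetylgalactosamine to make GM2 and GD2 and so uses the same GM3 and GD3 as the sialyltransferases. It read 122, 136, 86.4 and 146 at 37 °C and 95.3, 84.2, 93.6 and 114 at 31.5 °C (1418655_at). Replicate 3 at 37 °C stood low beside its group, and the other 3 pairs were lower in the cold. The change of -0.32 ± 0.17 did not pass (adjusted p = 0.235; 0.106 with the block). Without that array the gene passed (-0.48, adjusted p = 0.0423), and with the block it passed without pair 3 (-0.47, adjusted p = 0.0342). Its other probe set, 1425363_at, was dim, at 14.6 ± 5.27 in the cold and 13.9 ± 2.53 at 37 °C.

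B3galt4, which adds the galactose of GM1, read 51.04, 29.3, 55.1 and 49.6 at 37 °C and 66.97, 48.7, 35.5 and 43.4 at 31.5 °C. It was higher in 2 pairs and lower in 2 (0.073 ± 0.24, adjusted p = 0.87), and the sign turned to -0.13 without replicate 2 at 37 °C and to -0.094 without replicate 1 at 31.5 °C. St3gal2, which adds the outer sialic acid of GD1a and GT1b, read 397, 358, 425 and 321 at 37 °C and 382, 351, 279.5 and 307 at 31.5 °C (1421891_at). All 4 pairs were lower in the cold, by -0.057, -0.028, -0.61 and -0.063, so that most of the mean came from replicate 3 (-0.19 ± 0.13, adjusted p = 0.354). Its probe set 1421892_at was at 156 ± 19.2 at 37 °C and 117 ± 20.6 in the cold. That change of -0.42 ± 0.14 had an adjusted p of 0.087 and passed with the block (0.0168) or without replicate 4 at 31.5 °C (0.038). The blocked call ended without pair 1, 2 or 3 (at most 0.0651). The remaining St3gal2 probe set, 1421890_at, was at -0.049 ± 0.12 (adjusted p = 0.833), a sign that median or no scaling turned.

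Over all members, 3 of the 19 tested probe sets did not overlap between temperatures, against 21% of all probe sets. With the block 2 rose (Ugcg 1421269_at and St3gal5 1449198_a_at) and 4 fell (B4galt6 1435758_at and 1460329_at, St8sia3 1451008_at and St3gal2 1421892_at), where 26.3% of all were called (12.4% higher, 13.9% lower). The 5 other probe sets of the 24 were too dim to be tested.

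A factor that scales a whole array cancels in a ratio within it, and 5 were tested by an exact two-sided permutation test whose smallest possible p is 0.0286. The log2 ratio of B4galt6 to B4galt5 was 0.72, 0.74, 0.52 and 0.93 at 37 °C and -0.045, 0.18, 0.30 and 0.22 at 31.5 °C. Every cold array was below every warm one, a difference of -0.56 (exact p = 0.0286, adjusted over the ratios 0.0714). With the probe sets of each gene averaged the difference was -0.58, with an exact p of 0.0571 (adjusted 0.0952). For Ugcg to Ugt8a, the enzymes that add glucose or galactose to ceramide, the ratio was -3.20, -3.27, -3.17 and -3.19 at 37 °C and -2.57, -2.15, -2.42 and -2.42 at 31.5 °C. It was higher in the cold by 0.82, also without overlap (exact p = 0.0286, adjusted 0.0714; with probe sets averaged 0.60, exact p = 0.0286, adjusted 0.0952). More of this came from Ugt8a, which is not a member and changed by -0.58, than from Ugcg (0.23), whose own groups overlapped. How often other pairs of genes separate the temperatures was not examined. Neither ratio passed the correction. As only these ratios had the smallest possible p, an adjusted 0.0714 was the lowest value open to them. They could not have passed, so the correction decides nothing about them. The test also made no use of the pairing of the arrays. The ratios of successive or branching steps overlapped between temperatures: St8sia1 to St3gal5 differed by -0.36 (exact p = 0.629), B4galnt1 to St8sia1 by -0.22 (exact p = 0.6) and St8sia5 to St8sia3 by 0.19 (exact p = 0.514), each with an adjusted p of 0.629. With probe sets averaged, St8sia1 to St3gal5 differed by -0.37 with an exact p of 0.0571 (adjusted 0.0952), as small as that of the galactosyltransferases, and the others had exact p-values of 0.486 and 0.314. The averages of B4galt5, St8sia1, B4galnt1 and Ugcg take in probe sets too dim to be tested singly.

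**Figure D3:**
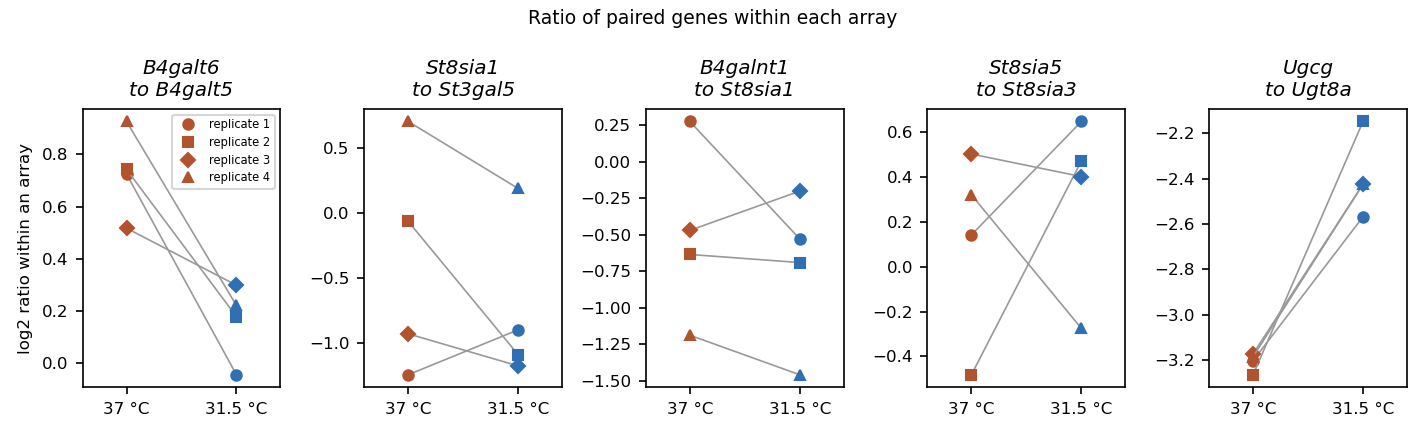
Log2 ratio of 2 genes within each array at 37 °C and 31.5 °C, with lines joining arrays of one number; each panel has its own axis. The B4galt6 to B4galt5 and Ugcg to Ugt8a panels separate the temperatures (differences of -0.56 and 0.82), and in the other 3 panels the groups overlap.

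Beside the members, the tested relatives that build polysialic acid on the neural cell adhesion molecule fell, 2 of 2, while St8sia6 was dim. Of all genes 7.77% fell. St8sia4 fell from 528 ± 44.7 to 352 ± 33.97 (-0.58 ± 0.10, adjusted p = 0.00788; 0.0912 with median scaling). St8sia2 fell from 819.6 ± 94.1 to 633 ± 25.02 (-0.37 ± 0.10, adjusted p = 0.0359), a call that ended with median scaling (0.263) or its probe sets averaged (0.212) and without replicate 1, 2 or 4 at 37 °C or replicate 1, 2, 3 or 4 at 31.5 °C (at most 0.0969). Neither gene overlapped between temperatures, which 22.2% of all genes showed.

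Of 10 tested enzymes of other glycolipid branches and of sialic acid modification, 1 rose, 2 fell and 7 did not pass (median -0.25; 4 fell with the block), and St3gal1, A4galt and Gbgt1 were dim. Of all genes 7.64% rose and 7.77% fell, and 15.8% fell with the block. Casd1, which acetylates sialic acids such as those of GD3, fell from 445 ± 31.2 to 302 ± 25.4, by -0.54, -0.54, -0.55 and -0.61 in the pairs (adjusted p = 0.00684). The mean of its probe sets was at -0.24 (adjusted p = 0.105), and with median scaling the adjusted p was 0.107. St6galnac4, a sialyltransferase that acts on N-acetylgalactosamine, fell by 0.35 (adjusted p = 0.0297), lost with median scaling (0.299) or the block and 1 pair left out (up to 0.0699) and without replicate 1, 3 or 4 at 37 °C or replicate 1, 2 or 3 at 31.5 °C (at most 0.0847). B3gnt5, which draws lactosylceramide into the lacto series, rose from 421 ± 31.6 to 551 ± 39.6 (0.39 ± 0.089, adjusted p = 0.022), lost with median scaling (0.0939) and without replicate 1 or 4 at 37 °C or replicate 1, 2 or 3 at 31.5 °C (at most 0.062).

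Among genes that supply the building blocks, 1 of 8 of sialic acid and sugar supply and 4 of 12 of ceramide supply passed, where 15.4% of all genes did. Of 8 tested genes of sialic acid and sugar supply, 1 fell: Slc35a2, the carrier of UDP-galactose into the Golgi (from 380.0 ± 25.4 to 272 ± 14.6, adjusted p = 0.00801; 0.159 with median scaling and 0.0552 without probe sets of the _x_at and _s_at kind). With the block 1 gene of sialic acid and sugar supply also rose, where 15% of all genes did. Of 12 genes of ceramide supply and transfer, 2 rose and 2 fell (median 0.059). Kdsr, a reductase of ceramide synthesis, rose from 239.7 ± 28.6 to 353 ± 22.5 (adjusted p = 0.01; 0.0564 with the mean of its probe sets). Sptlc2, a subunit of the first enzyme, rose by 0.49 (adjusted p = 0.012; 0.0582 with median scaling), but the mean of its probe sets was at -0.21 (0.0837). Gltp, a glycolipid transfer protein, fell from 1810.3 ± 205 to 1245 ± 46.03 (adjusted p = 0.00965; 0.0673 with median scaling). Cers6, a ceramide synthase, fell by 0.59 (adjusted p = 0.0494), lost with median scaling (0.0681), no filter on dim signals (0.112), its probe sets averaged (0.0552) or no _x_at or _s_at probe sets (0.0503) and without replicate 1, 2, 3 or 4 at 37 °C or replicate 1, 2 or 3 at 31.5 °C (at most 0.122).

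Of 6 enzymes that use ceramide for other lipids 3 fell, those of the myelin galactolipids, where 7.77% of all genes fell. Fa2h, which hydroxylates the fatty acid, fell from 455 ± 94.1 to 239.8 ± 26.1 (-0.91 ± 0.15, adjusted p = 0.00688). Ugt8a fell from 2221 ± 394 to 1474 ± 167 (adjusted p = 0.0265), lost with median scaling (0.165) or no filter on dim signals (0.0579) and without replicate 1, 2 or 3 at 37 °C or replicate 2, 3 or 4 at 31.5 °C (at most 0.0631). Gal3st1, the sulfotransferase, fell by 0.58 (adjusted p = 0.0449), lost with median scaling (0.167), no filter on dim signals (0.102), its probe sets averaged (0.0509) or the block and 1 pair left out (up to 0.135) and without replicate 2, 3 or 4 at 37 °C or replicate 2, 3 or 4 at 31.5 °C (at most 0.105).

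Of 11 tested genes of glycolipid breakdown, a list that also holds Arsa and Galc, which act on galactolipids, 3 fell and none rose (median -0.29), where 7.77% of all genes fell. With the block 6 fell, Arsa and, named after its value was seen, Galc among them, where 15.8% of all did, and Neu2 and Neu3 were dim. Hexa, which removes N-acetylgalactosamine from GM2, fell from 1957 ± 413 to 1174 ± 140.4 (-0.72 ± 0.16, adjusted p = 0.0181; 0.0521 without replicate 2 at 31.5 °C). Ctsa, which stabilises the lysosomal sialidase, fell by 0.51 (adjusted p = 0.0308), lost with median scaling (0.0745), no filter on dim signals (0.062) or its probe sets averaged (0.231) and without replicate 1, 3 or 4 at 37 °C or replicate 1, 2 or 3 at 31.5 °C (at most 0.0769). Arsa, which acts on sulfatide and not on gangliosides, fell by 0.72 (adjusted p = 0.0102). Without any scaling of the arrays no member passed, nor did any of the genes above that passed without the block (adjusted p at least 0.103).

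**Figure D4:**
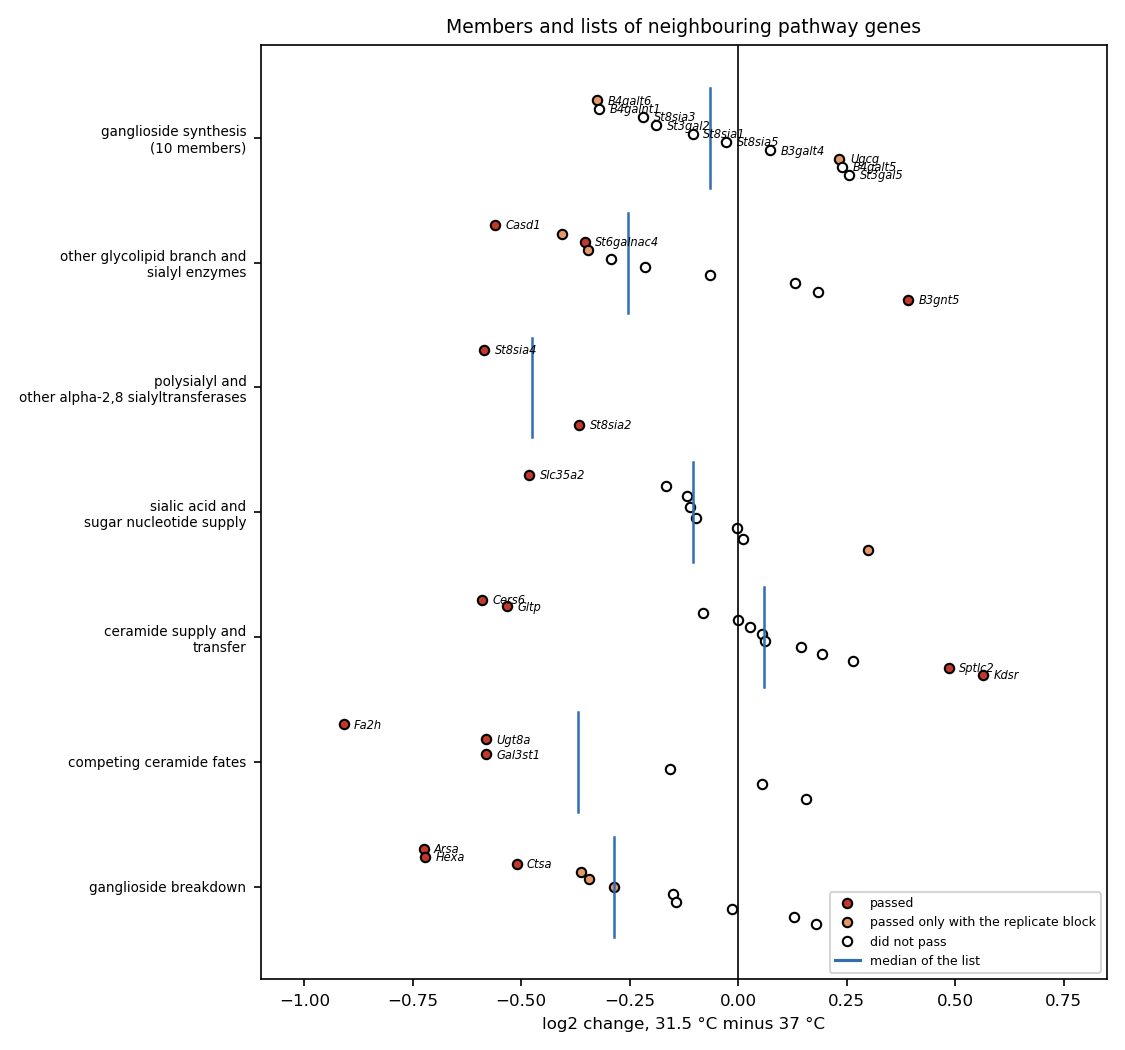
Log2 change (31.5 °C minus 37 °C) of each tested gene of the 10 members and of 6 lists of neighbouring genes, 1 point per gene. Red passed, orange passed only with the replicate block, open did not pass, and blue bars are list medians; no member is red, and Fa2h at -0.91 is the lowest point.

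Each array reads all cells of a culture, so fewer cells of a type and less RNA per cell cannot be told apart. The precursor identity is that of the labels. Markers of astrocytes, neurons, microglia and myelin also gave signal, summed below, so the ganglioside values cannot be assigned to precursors alone. Over all genes 7.64% rose and 7.77% fell, or 15% and 15.8% with the block. Of 10 precursor markers 2 rose and 2 fell (3 with the block; summed signals 17862 to 20782 in the cold, 18357 to 22265 at 37 °C). Pdgfra was at 1798 ± 168 at 37 °C and 2469 ± 365 in the cold (adjusted p = 0.0373), a call that ended with quantile normalization (0.053), no filter on dim signals (0.0692) or its probe sets averaged (0.0595) and without replicate 1, 2 or 4 at 37 °C or replicate 2, 3 or 4 at 31.5 °C (at most 0.0926). Lhfpl3 rose by 0.67 (adjusted p = 0.0373), lost with no filter on dim signals (0.0905) and without replicate 1 or 2 at 37 °C or replicate 2, 3 or 4 at 31.5 °C (at most 0.091). Gpr17 fell by 0.84 (adjusted p = 0.00242), and Vcan by 0.46 (adjusted p = 0.0303), lost with median scaling (0.185), no filter on dim signals (0.0552) or its probe sets averaged (0.109) and without replicate 2, 3 or 4 at 37 °C or replicate 1, 3 or 4 at 31.5 °C (at most 0.0792). Olig2 was at 2097 ± 271 and 1805 ± 203 (adjusted p = 0.278) and Cspg4 at 119.5 ± 22.01 and 138 ± 34.5 (0.514). Of 7 tested myelin markers 5 fell (summed signals 8351 to 12066 in the cold, 16771 to 20901 at 37 °C): Mobp fell from 304 ± 211 to 10.02 ± 7.19, close to the floor, Cldn11 by 1.71, Mag by 1.65 and Mbp by 0.80, with adjusted p-values of 0.000876, 0.00311, 0.00445 and 0.00841. Of 8 astrocyte markers 1 fell, S100b by 1.67 (adjusted p = 0.000336), and 6 with the block (summed signals 9053 to 16195 in the cold, 12306 to 21985 at 37 °C). Of 10 neuron markers 1 rose, Nefm by 0.71 (adjusted p = 0.0193; at most 0.0553 without replicate 2 or 3 at 31.5 °C), and 1 fell, Gap43 by 0.63 (adjusted p = 0.0299), lost with median scaling (0.097) or no filter on dim signals (0.0695) and without replicate 1, 2 or 4 at 37 °C or replicate 1 or 3 at 31.5 °C (at most 0.0754). With the block 1 rose and 4 fell (summed signals 10672 to 13694 in the cold, 11131 to 15762 at 37 °C). Of 10 microglia markers none passed and 4 fell with the block (9217 to 16716 in the cold, 12482 to 22598 at 37 °C). Of 6 tested fibroblast and endothelial markers none passed and 3 fell with the block (1573 to 4638 in the cold, 1715 to 3826 at 37 °C), while Pecam1, Cldn5 and Cdh5 were dim. The part of these shifts in the values of the ganglioside genes was not tested.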

How the data were processed

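The deposited values are linear intensity per probe set, for which the submitters' processing notes name MAS5; its version and target are not given in the sources used here. The brightest array's 2% trimmed mean was 1.89 times the dimmest one's, so arrays were scaled to a common one (factors 0.848 to 1.60). Values under the 25th percentile (9.80) were raised to it, and log2 was taken. Of 45037 probe sets 34945 carried 1 symbol in GEO's platform annotation, 932 several and 9160 none. Each gene took its brightest probe set; genes and probe sets at or above the median mean (36.3) were tested with limma 3.58.1 in R 4.3.3, two-sided, with temperature as the only term and Benjamini-Hochberg adjustment over all. The number of arrays limits the precision.

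Arrays of one replicate number deviated together from the group means (correlations 0.422 to 0.614, at most 0.0566 between other numbers), so the numbers pair the arrays; the blocked value stands where it changes a call. Members and lists were chosen with earlier results of these data known. Named are the members, the tested genes of smallest p past the threshold in each list (up to 4), the genes most like St3gal5, and 4 marker genes. Of the listed genes 6 were not analysed here. Alternatives were other scalings, floors, filters, probe set rules and variance models, the block, and leaving out arrays or pairs. A mean of probe sets took in every one of a gene, also those too dim to be tested singly. The procedure was tested on simulated data without pairing. Made log2 changes of 0.5 were called in 40.1% of cases and those of 1 in 80.3%, and 5.85% of calls were false. Every tested member changed by less than 0.5 in the fit without the block, so not passing is not evidence of no change.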

Additional observations from a re-analysis of the deposited data

Results flagged for a closer look

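Of 48 groups of 4 values examined, 1 held an array far from the others by Dixon's criterion, where chance gives about 1 in 20. For B3galt4 (1419138_at), replicate 2 at 37 °C read 29.3, while the other 3 arrays at 37 °C lay between 49.6 and 55.1.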

How the results depend on the processing

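The count of genes past the threshold was 1775 and moved to 725 with median scaling (454 higher, 271 lower), 227 without scaling (115 and 112) and 3548 with the replicate block, and ran from 871 to 1601 with 1 array left out. For probe sets 2977 became 1630, 580, 5919 and 1575 to 2727 in the same order. Of the 10 members 0 passed, 1 with the mean of probe sets (St3gal5), 2 with the block, 0 to 2 with 1 array left out and 0 to 2 with the block and 1 pair left out. Apart from Sptlc2, the signs that turned were of members and ratios. St8sia5 was at 0.021 with quantile, 0.061 with median and 0.053 with no scaling and at 0.0078 with array weights (0.0025 when fitted by probe set). St3gal2 1421890_at was at 0.040 with median and 0.032 with no scaling, Ugcg 1435133_at at -0.029 with array weights, and Sptlc2 at -0.21 with the mean of its probe sets. With 1 array left out, St8sia1 ran from -0.43 to 0.22, St8sia5 from -0.17 to 0.062, B3galt4 from -0.13 to 0.21, Ugcg 1435133_at from -0.20 to 0.12, B4galt6 1423228_at from -0.059 to 0.12 and St3gal2 1421890_at from -0.14 to 0.014. With the block and 1 pair left out, St8sia1 reached 0.072, St8sia5 0.064 and 0.073, B3galt4 -0.033 and -0.15, and Ugcg 1435133_at -0.12. The ratio of B4galnt1 to St8sia1 ran from -0.44 to 0.045, St8sia5 to St8sia3 from -0.010 to 0.39 and St8sia1 to St3gal5 from -0.70 to 0.0020 with 1 array left out, while B4galt6 to B4galt5 (-0.72 to -0.50) and Ugcg to Ugt8a (0.73 to 0.87) kept their signs. The cause of these shifts was not tested. Low signals, close to the filter on dim probe sets, limit what can be said of St8sia3, St8sia5 and B3galt4.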
